A study of Mus musculus with 2 samples.

Results

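The proteasome genes of embryonic mouse liver were chosen by symbol, as the protein-coding genes whose name begins with Psma to Psmg or Psme followed by a number. The rule took 50 genes of the 43346 gene rows and of the 21474 protein-coding rows. The tissue was liver at embryonic day 14.5 of the C57BL/6J mouse strain, from littermates of mixed sex. Polyadenylated, rRNA-depleted RNA longer than 200 nt was sequenced as stranded paired-end libraries. The only group holds 2 libraries, called biological replicates 1 and 2, without any treatment, mutation or other stage to set them against. The labels do not say how many litters or embryos each library pooled. All p-values below therefore measure the difference between these 2 libraries and nothing else.

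The proteasome is the barrel-shaped protease that degrades proteins tagged with ubiquitin. Its core is built from outer alpha rings, which form the gate, and inner beta rings, which hold the proteolytic sites. A cap with a ring of ATPases (the base) and a lid recognises, de-ubiquitinates and unfolds the substrate. In cells exposed to interferon the catalytic beta subunits can be replaced by immunoproteasome subunits, other activators can take the place of the cap, and dedicated chaperones put core and base together. Fetal liver at this age is chiefly a blood-forming organ, and maturing red cells are known to degrade most of their proteins.

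By role, the 50 genes were 7 of the alpha ring (Psma1 to Psma7), 7 of the beta ring (Psmb1 to Psmb7), 3 immunoproteasome catalytic subunits (Psmb8, Psmb9 and Psmb10) and 2 core subunits known from single tissues (Psma8 and Psmb11). The cap gave 6 base ATPases (Psmc1 to Psmc6), 3 other base subunits (Psmd1, Psmd2 and Psmd4) and 8 lid subunits. The remaining members were 7 assembly chaperones (Psmg1 to Psmg4, Psmd5, Psmd9 and Psmd10), 5 activators (Psme1, Psme2, Psme2b, Psme3 and Psme4), the inhibitor Psmf1, and Psmc3ip. Psmc3ip is a meiotic recombination factor whose name, from its binding to Psmc3, places it here by symbol alone. The 4 pseudogenes with like symbols were left out, and none exceeded 0.06 TPM in a library.

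The tables held 102720920 estimated gene counts in replicate 1 and 65640933 in replicate 2, of which the proteasome genes took 0.487% and 0.429%. Levels are given in TPM, a relative transcript abundance scaled for transcript length and library size. Globin transcripts took 48.5% of all TPM in replicate 1 and 57.5% in replicate 2, so every TPM value below is diluted by them. Paired values of a gene are those of replicates 1 and 2. The organ label was met by both cell lineages it implies: all 5 hepatocyte markers, with Alb at 10323 and 8911 TPM in replicates 1 and 2, and all 5 erythroid markers reached 1 TPM in both libraries. In these bulk samples, fewer cells of a type and less RNA per cell cannot be told apart.

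The alternative forms and promoter windows that the results below turn on are shown here. The first set shows the exon border of the ubiquitin receptor gene Psmd4 (mm10, chr3, minus strand) that is used in 2 versions, because its 2 splice sites shared 4551 junction reads, both well used. Each line gives 60 bases of spliced coding sequence from the GENCODE M21 transcripts. Capitals mark the 9 bases, chr3:95033909-95033917, that only the longer exon keeps.
Psmd4-201: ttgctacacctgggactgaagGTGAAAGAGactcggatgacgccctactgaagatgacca
Psmd4-202: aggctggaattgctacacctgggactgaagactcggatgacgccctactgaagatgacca
The second set shows the border in Psma3 (mm10, chr12, plus strand) where the estimated isoform shares of the libraries differed most. Capitals mark the 5 bases, chr12:70983319-70983323, that Psma3-202 keeps and Psma3-201 lacks, and the annotation calls Psma3-201 a transcript subject to nonsense-mediated decay.
Psma3-202: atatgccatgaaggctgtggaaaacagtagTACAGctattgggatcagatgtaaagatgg
Psma3-201: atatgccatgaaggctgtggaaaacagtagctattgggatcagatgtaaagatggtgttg
The third set shows the 76-base coding exon of Psmg4 (mm10, chr13:34166061-34166136, plus strand), in capitals with 20 bases on either side, and the border left when it is skipped.
Psmg4-202: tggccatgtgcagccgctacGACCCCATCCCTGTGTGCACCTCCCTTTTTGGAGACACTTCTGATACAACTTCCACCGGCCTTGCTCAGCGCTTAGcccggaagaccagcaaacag
Psmg4-201: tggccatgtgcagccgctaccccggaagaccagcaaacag

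Promoters are given for the 2 catalytic pairs with the lowest immunoproteasome levels, each immunoproteasome gene before the standard gene it replaces. Each run holds 250 bases before and 50 after the RefSeq start on build GRCm38.p6. Capitals mark matches to TGACNNNGC (the core of the antioxidant response element, read GCNNNGTCA on the other strand) or to the CCAAT box on either strand. A CCAAT box on the other strand reads ATTGG. The core of the interferon-stimulated response element, also searched on both strands, had no match in these 4 windows.
The windows are Psmb8 at chr17:34197945-34198244, plus strand, Psmb5 at chr14:54617946-54618245, minus strand, Psmb9 at chr17:34187281-34187580, minus strand, and Psmb6 at chr11:70525107-70525406, plus strand.
Psmb8: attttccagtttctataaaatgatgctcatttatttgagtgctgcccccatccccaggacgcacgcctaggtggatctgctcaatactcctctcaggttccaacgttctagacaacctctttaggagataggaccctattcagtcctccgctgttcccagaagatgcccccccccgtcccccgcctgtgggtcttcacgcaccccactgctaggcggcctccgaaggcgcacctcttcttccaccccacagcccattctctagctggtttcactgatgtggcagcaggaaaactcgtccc
Psmb5: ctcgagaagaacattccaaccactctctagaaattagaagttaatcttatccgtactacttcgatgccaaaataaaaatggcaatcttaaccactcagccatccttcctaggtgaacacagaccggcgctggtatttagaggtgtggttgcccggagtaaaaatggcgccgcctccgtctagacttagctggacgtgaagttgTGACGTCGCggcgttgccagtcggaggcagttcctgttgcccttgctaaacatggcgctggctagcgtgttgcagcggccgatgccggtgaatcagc
Psmb9: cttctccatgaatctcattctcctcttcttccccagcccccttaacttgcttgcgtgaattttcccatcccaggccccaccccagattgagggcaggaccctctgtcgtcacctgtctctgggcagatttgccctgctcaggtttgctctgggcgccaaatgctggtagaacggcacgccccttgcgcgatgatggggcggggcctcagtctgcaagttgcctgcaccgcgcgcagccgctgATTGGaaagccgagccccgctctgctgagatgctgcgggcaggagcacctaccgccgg
Psmb6: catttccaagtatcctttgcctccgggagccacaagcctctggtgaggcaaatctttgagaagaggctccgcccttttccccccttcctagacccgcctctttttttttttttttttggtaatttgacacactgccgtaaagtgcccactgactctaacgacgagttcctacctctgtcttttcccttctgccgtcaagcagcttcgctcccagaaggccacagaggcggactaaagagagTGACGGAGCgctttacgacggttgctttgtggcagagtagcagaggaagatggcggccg

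Nearly the whole proteasome was expressed. At a minimum of 1 TPM in each library 47 of the 50 members were present, at 10 TPM 44 were, and at 100 TPM 9 were. Their median was 57.3 TPM in replicate 1 and 40.3 TPM in replicate 2. Over the 10899 protein-coding genes that averaged 1 TPM or more the median was 8.99 and 7.49 TPM, and 10.04% and 12.6% of those genes stood at or above the proteasome median. Summed, the members held 3539 TPM in replicate 1 and 2872 TPM in replicate 2. The 9 members over 100 TPM were Psmb3, Psmb6, Psma2, Psmb7, Psmb4, Psma7, Psmd4, Psmb2 and Psme3.

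**Figure D1:**
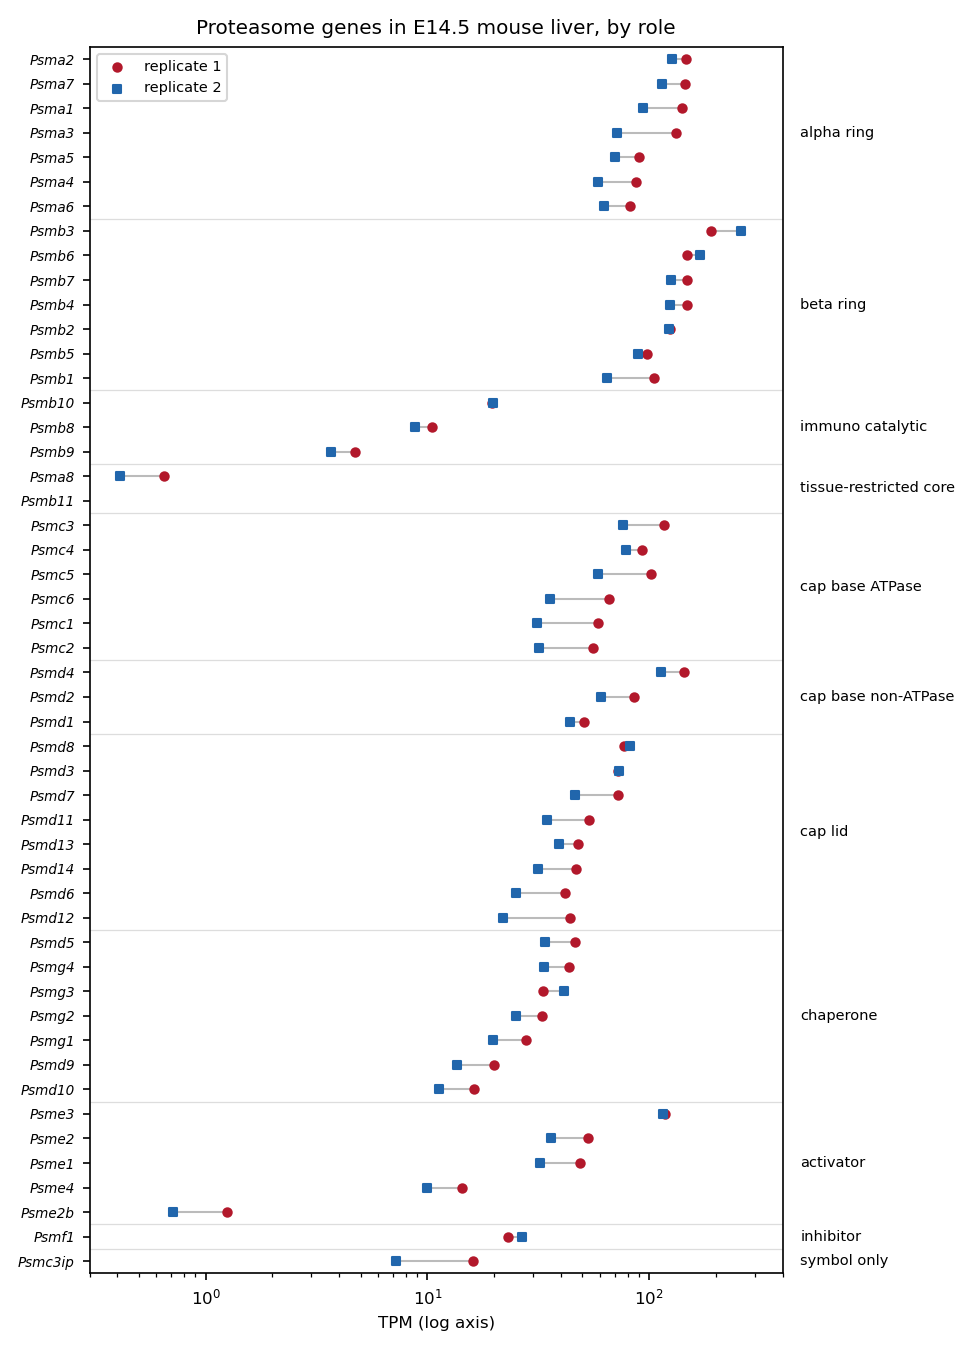
TPM (log axis) of each member in replicate 1 (circles) and replicate 2 (squares), grouped by role and sorted by the mean within a role; grey lines join the libraries. By median, the core lies above the cap and the cap above the chaperones, though single genes of these groups overlap. The immunoproteasome subunits lie between 3.66 and 19.8 TPM, and Psmb11, at 0 TPM in both, has no point.

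The 14 genes of the standard core had similar levels. Their median was 136 TPM in replicate 1 and 104 TPM in replicate 2 (120 ± 22.8 TPM, SD, n = 2), and the highest exceeded the lowest by 3.09-fold in mean TPM. By mean TPM the alpha ring ran from Psma6 (chromosome 12, 55384222 to 55418454), at 82.3 and 62.4 TPM in replicates 1 and 2, to Psma2 (chromosome 13, 14613240 to 14674236), at 147 and 127 TPM. All 7 alpha genes had more TPM in replicate 1. In the beta ring, Psmb1 was lowest by mean, at 105 and 64.3 TPM, and Psmb3 (chromosome 11, 97703399 to 97713500) was the highest of all members, at 189 and 258 TPM. Both encode subunits with no proteolytic site of their own in mammals.

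The 3 standard catalytic genes lay within the range of the ring. Psmb6, the caspase-like subunit (chromosome 11, 70525367 to 70527858), stood at 149 TPM in replicate 1 and 169 TPM in replicate 2. Psmb7, the trypsin-like subunit (chromosome 2, 38588036 to 38644087), stood at 148 and 125 TPM. Psmb5, the chymotrypsin-like subunit (chromosome 14, 54614119 to 54618022), stood at 97.3 and 88.9 TPM. Psmb5 was thus the lowest of the 3 in both libraries, and Psmb6 and Psmb7 were nearly level in replicate 1.

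The immunoproteasome subunits were present at a low level. Psmb10, which replaces Psmb7, had 19.6 TPM in replicate 1 and 19.8 TPM in replicate 2 (chromosome 8, 105935735 to 105938444). Psmb8, which replaces Psmb5, had 10.5 and 8.81 TPM (chromosome 17, 34197721 to 34201454). Psmb9, which replaces Psmb6, had 4.72 and 3.66 TPM (chromosome 17, 34181987 to 34187764). The order Psmb10, Psmb8, Psmb9 was the same in both libraries and the ranges of neighbouring genes did not overlap. Together the 3 immunoproteasome genes made up 8.13% of the TPM of the 6 catalytic genes in replicate 1 and 7.76% in replicate 2. Their summed level over the standard sum was -3.50 on the log2 scale in replicate 1 and -3.57 in replicate 2 (mean -3.53 ± 0.05, SD, n = 2).

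The pairs differed in size from one another. Psmb9 over Psmb6 gave a log2 ratio of -4.98 in replicate 1 and -5.53 in replicate 2, Psmb8 over Psmb5 gave -3.21 and -3.33, and Psmb10 over Psmb7 gave -2.91 and -2.66. No ratio of one pair fell within the range of another. Within a pair the coding sequences were 63.7% to 66.8% identical over aligned bases (Psmb10 with Psmb7 lowest and Psmb8 with Psmb5 highest), and the authors' estimated counts of these 6 genes had a posterior SD of at most 0.0119% of the count. In the authors' separate table on build mm9, in RPKM, Psmb8 over Psmb5 was -3.01 and Psmb10 over Psmb7 was -3.03 on the log2 scale, and Psmb9 had no matching identifier there.

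Other genes of antigen presentation were of unequal level. Psmb8, Psmb9 and the peptide transporter genes Tap1 and Tap2 lie together in the major histocompatibility complex on chromosome 17. Tap1, annotated from 34187553 to 34197225, overlaps the start of Psmb9, which lies on the minus strand, and had 1.88 TPM in replicate 1 and 1.91 TPM in replicate 2, and Tap2 had 2.73 and 2.09 TPM. The light chain B2m had 150 and 224 TPM, and the class I heavy chain H2-K1 had 68.6 and 73.2 TPM. Nlrc5, the transactivator of class I genes, had 0.13 and 0.11 TPM, while the transcription factor Irf1 had 7.85 and 4.93 TPM. Of this list of 10 genes, none was called between the libraries by the test described below, 3 passed it at any fold with more in replicate 1, and 4 with more in replicate 2. The 4 pan-leukocyte markers summed to 99.8 and 133 TPM, the 5 macrophage markers to 98.6 and 112 TPM, and the 5 lymphoid markers to 4.31 and 5.03 TPM, with the T cell marker Cd3e at 0.01 and 0 TPM. The 3 granulocyte markers summed to 792 and 623 TPM, and S100a8 among them, at 602 and 397 TPM, was called with more in replicate 1. The part of blood cells in the immunoproteasome level was not tested.

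Of the core subunits known from single tissues, Psmb11 was not detected and Psma8 was low. Psmb11, the catalytic subunit of thymic epithelium, had 0 counts in both libraries, so its level could be at most 0.0292 CPM in replicate 1 and 0.0457 CPM in replicate 2, where CPM is the count scaled to the library total and 3 counts are taken as the limit of a count of 0. It lies on chromosome 14 from 54621433 to 54629556, near Psmb5, which had 8084 and 5001 estimated counts. Psma8, the testis form of the alpha subunit Psma7, had 0.65 and 0.41 TPM, from 121 and 56 counts. Psma7 stood at 145 and 114 TPM, so Psma8 over Psma7 was -7.80 and -8.13 on the log2 scale. Psma8 shares 74.5% of aligned coding bases with Psma7.

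**Figure D2:**
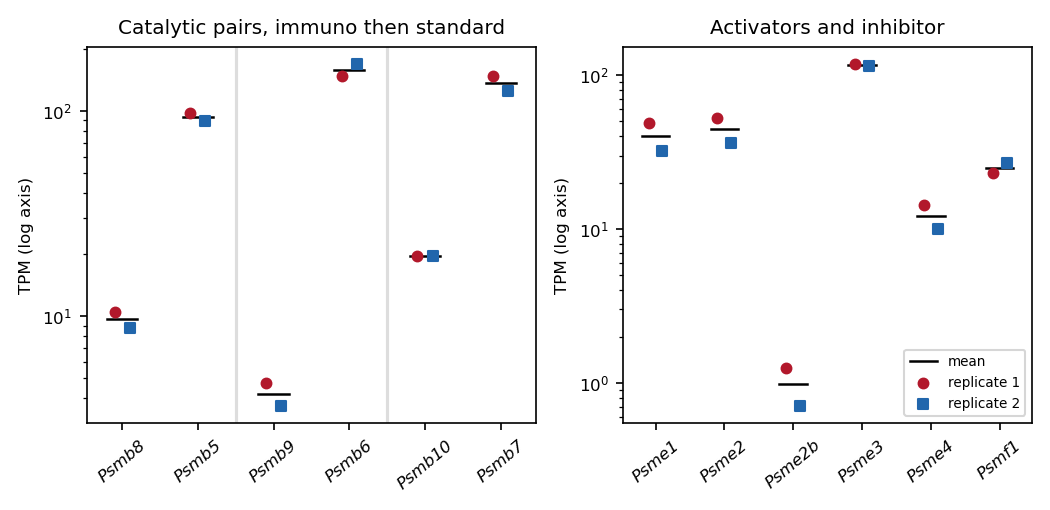
TPM (log axis) of the catalytic pairs, immunoproteasome gene left of the standard gene it replaces, and of the activators and the inhibitor; circles are replicate 1, squares replicate 2 and bars their mean. Each immunoproteasome gene lies below its partner in both libraries, and Psme3, at 118 and 115 TPM, lies above the other activators.

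The cap lay lower than the core when scaled for length. The median of its 17 genes was 65.6 TPM in replicate 1 and 44.0 TPM in replicate 2 (54.8 ± 15.3 TPM, SD, n = 2). Cap over core medians gave -1.05 in replicate 1 and -1.24 in replicate 2 on the log2 scale of TPM. On estimated counts, with no scaling for length, the same ratio averaged -0.074, and on mm9 RPKM it was -0.28. The size of the difference thus depended on the unit. In counts, which also grow with transcript length, the cap median was above the core median in replicate 1 and below it in replicate 2.

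Within the base, the ATPases that unfold substrates ran by mean TPM from Psmc2 (chromosome 5, 21785283 to 21803787), at 56.03 TPM in replicate 1 and 31.8 TPM in replicate 2, to Psmc3 (chromosome 2, 91054009 to 91066369), at 117 and 76.1 TPM. Psmc4 had 92.4 and 78.4 TPM, and Psmc5 had 102 and 58.97 TPM. Psmc1 had 58.6 and 31.2 TPM and Psmc6 had 65.6 and 35.6 TPM, so Psmc1, Psmc2 and Psmc6 were the lower ATPase genes in both libraries. The ubiquitin receptor Psmd4 (chromosome 3, 95032694 to 95042614) was the highest cap gene by mean, at 143.8 and 113 TPM. The large scaffold subunits Psmd2 and Psmd1 had 85.3 and 60.8 TPM, and 50.6 and 44.0 TPM, for replicates 1 and 2.

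The lid was the lowest block of the standard particle. Its 8 genes had a median of 50.6 TPM in replicate 1 and 37.0 TPM in replicate 2, and lid over base medians were -0.75 and -0.67 on the log2 scale. Psmd14, the de-ubiquitinase (chromosome 2, 61711694 to 61800376), had 46.8 and 31.6 TPM, and its partner Psmd7 had 72.2 and 46.1 TPM. Psmd8, a structural lid subunit, had 76.7 and 82.3 TPM, and Psmd3, another, had 72.4 and 72.8 TPM. They were the lid genes with the most TPM in both libraries. Psmd11 had 53.5 and 34.7 TPM, Psmd13 had 47.6 and 39.4 TPM, and Psmd6 had 41.6 and 25.2 TPM. Psmd12 was lowest by mean, at 43.8 and 22.02 TPM.

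Lid and base subunits that are encoded under other names were also measured. Adrm1, the other ubiquitin receptor of the base, had 49.5 TPM in replicate 1 and 52.8 TPM in replicate 2, within the range of the lid genes. Sem1, the smallest lid subunit, had 51.4 and 33.7 TPM. The de-ubiquitinases Usp14 and Uchl5, which bind the cap reversibly, had 31.4 and 17.0 TPM, and 20.4 and 9.37 TPM. Of the 10 genes found on the list of partners, all reached 1 TPM in both libraries and none was called between them.

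The assembly chaperones were expressed well below the core. Their median was 33.0 TPM in replicate 1 and 25.1 TPM in replicate 2. Chaperone over core medians gave -2.05 on the log2 scale in both libraries, so that the chaperone median was 0.242 times that of the core in replicate 1 and 0.241 times in replicate 2. Psmg1, which forms a dimer with Psmg2 that guides the alpha ring, had 27.7 and 19.7 TPM, and Psmg2 had 32.97 and 25.1 TPM. Of the other alpha ring dimer, Psmg3 had 33.1 and 41.3 TPM and Psmg4 had 43.3 and 33.5 TPM. The order of Psmg3 and Psmg4 was not the same in both libraries. Of the base chaperones, Psmd5 had 46.1 and 34.0 TPM, Psmd9 had 19.9 and 13.7 TPM, and Psmd10, which is X-linked, had 16.1 and 11.3 TPM. Pomp, the maturation factor of the beta ring, was higher than any of the 7, at 119 and 101 TPM.

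Psme3 led the activators. This nuclear, ubiquitin-independent activator (chromosome 11, 101316213 to 101323537) had 118 TPM in replicate 1 and 115 TPM in replicate 2, the level of the core genes. Of the interferon-inducible activator genes, which lie close together on chromosome 14, Psme1 had 48.9 and 32.02 TPM and Psme2 had 52.7 and 35.96 TPM. Psme3 over Psme1 was 1.27 and 1.85 on the log2 scale of TPM and 2.85 on that of mm9 RPKM, while in TPM Psme1 over Psme2, whose products form one ring, was -0.11 and -0.17. Psme4, which is known for its part in spermatogenesis, had 14.3 TPM in replicate 1 and 10 TPM in replicate 2. The inhibitor Psmf1 had 23.0 and 26.8 TPM.

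Psme2b could not be separated firmly from Psme2. It is a single-exon gene on chromosome 11 (48945354 to 48946190) whose coding sequence matched that of Psme2 at 712 of 717 bases, 99.3%. It had 1.25 TPM in replicate 1 and 0.71 TPM in replicate 2, from 98.4 and 37.7 estimated counts with a posterior SD of up to 4.59% of the count. In the mm9 table the order was the other way, with Psme2b at 7.67 RPKM and Psme2 at 1.44 RPKM, a log2 ratio of 2.42 against -5.40 and -5.66 in TPM of replicates 1 and 2. The split of reads between these copies is therefore uncertain, and so is the level of Psme2.

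Across the 48 members with a value above 0 in both tables, log2 mm9 RPKM and log2 mean TPM correlated at Pearson's r = 0.78 and Spearman's rho = 0.81. These are points across genes that share libraries, and genes are not replicates. Apart from the Psme2 pair, Psma3 had the largest gap between the tables, with 4.44 RPKM on mm9 and a mean of 102 TPM, a log2 difference of -2.19 from the median difference of all members. For Psma2 and Psmb3 this was -1.36 and -1.25. Leaving out Psmc3ip, the 47 members from Psmb3 down to Psme2b were put in order of mean TPM. Of the 46 neighbouring pairs, 4 had ranges that did not overlap. Those pairs were Psmb3 over Psmb6, Psmb6 over Psma2, Psmb8 over Psmb9 and Psmb9 over Psme2b. Overlap of ranges leaves out that genes were measured in the same libraries. Some overlapping pairs, such as Psmb4 over Psma7, kept their order in both libraries, and others, such as Psma2 over Psmb7, did not.

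The libraries were then compared gene by gene. Counts were set against library sizes and tested with the exact conditional binomial test (two-sided), Benjamini-Hochberg adjusted over 17906 genes. A gene counted as called where the adjusted p was below 0.05 and the fold was 2 or more. Of 49 members tested, 1 was called, against 8.36% of all genes tested and 1.89% of protein-coding genes that averaged 1 TPM or more. Of all genes 4.62% were called with more in replicate 1 and 3.74% with more in replicate 2, and of those coding genes 1.6% and 0.294%. It was Psmc3ip, the member by symbol alone, with 1767 counts in replicate 1 and 564 in replicate 2. Its log2 ratio was 1.01 (exact 95% interval 0.87 to 1.15, counting error only, adjusted p = 4.63e-51), at the very edge of the fold threshold. In TPM it had 15.98 and 7.21. No subunit, chaperone, activator or inhibitor differed by 2-fold in counts.

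Smaller differences were common and mostly in one direction. At an adjusted p under 0.05 and any fold, 37 members had more in replicate 1, 9 had more in replicate 2 and 3 did not pass. Of all genes tested, 60.7% passed, 31% with more in replicate 1 and 29.7% with more in replicate 2. Of the expressed coding genes 76.8% passed, 39.8% and 37% in these directions. This test knows counting error alone. For edgeR's exact test a dispersion was taken from 10 housekeeping genes (CV 14.5%). That test gave 7 of 49 members an unadjusted p under 0.05, against 2682 of 17906 genes. It called 1 member, against 808 of those genes. The median log2 ratio was 0.27 over the members and 0.01 over all genes tested. All 7 alpha ring genes (median 0.27) and all 6 ATPases (median 0.62, from 0.21 for Psmc4 to 0.72 for Psmc1) had more in replicate 1. Of the beta ring, 3 genes had more in replicate 1, 3 had more in replicate 2 and Psmb5 did not pass, with a median of 0.05. Of the lid, 6 genes had more in replicate 1, led by Psmd12 at 0.78, while Psmd3 (-0.22) and Psmd8 (-0.28) had more in replicate 2.

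The largest shift towards replicate 2 was that of Psmb3, at -0.48 on the log2 scale (exact 95% interval -0.52 to -0.45, adjusted p = 9.9e-152). Psmg3 followed at -0.40, Psmb6 was at -0.25 and Psme3 at -0.23. Psmb10 was at -0.17, while Psmb8 was at 0.29 and Psmb9 at 0.21, so the 3 immunoproteasome genes did not move together. When spike-in counts served as library sizes, the median of all genes tested moved to -0.65, 3 members had more in replicate 1 and 41 had more in replicate 2. With those sizes Psmb3 and Psmg3 were called, and Psmc3ip was not, where 21.7% of all genes were called. The members' median became -0.39, since other library sizes shift all genes alike, and the directions above hold only relative to the bulk of genes.

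GC content moved with these differences. Across the 49 members tested, the log2 ratio and GC content of the transcripts correlated at Pearson's r = -0.42, and across 10898 protein-coding genes at -0.53. These are descriptions across genes that share the same libraries. In the bin under 45% GC, the median log2 ratio was 0.45 over 10 members and 0.29 over 2240 coding genes. From 45% to 50% GC it was 0.30 over 14 members and 0.13 over coding genes. From 50% to 55% GC it was 0.23 over 17 members and -0.07 over coding genes, and at 55% or more it was -0.06 over 8 members and -0.26 over coding genes. The members' median thus lay above that of coding genes in all 4 bins, and the part of GC content in the difference was not tested further.

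**Figure D3:**
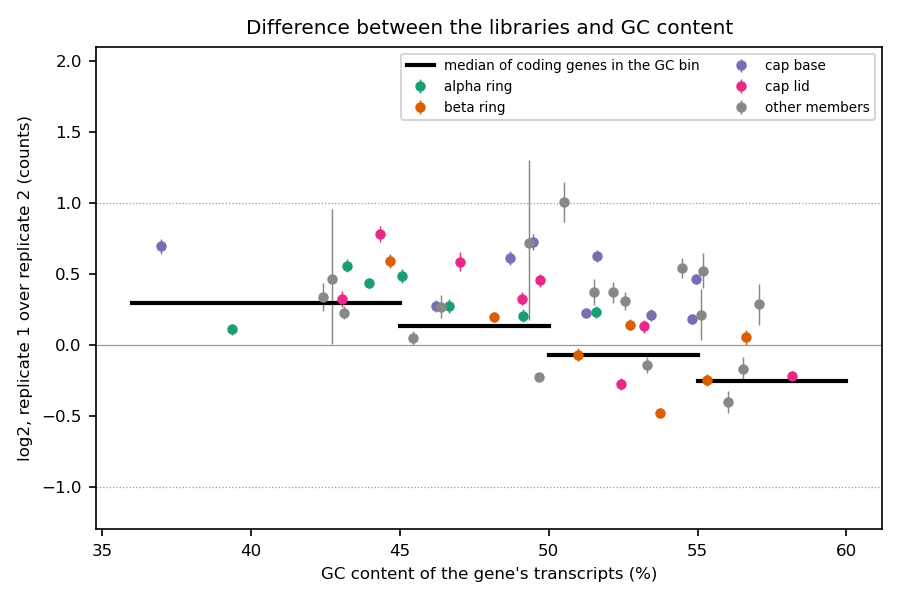
Log2 ratio of replicate 1 over replicate 2 in counts against the GC content of each member's transcripts (%), coloured by role, with exact 95% intervals (vertical lines) for counting error; black bars are medians of protein-coding genes in 4 GC bins and dotted lines mark 2-fold. Members of low GC content lie above 0, and Psmc3ip, at 1.01, is the only point to reach the 2-fold line.

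Most members were represented by 1 transcript. The tables give the percent of a gene's abundance that each transcript was estimated to hold. Of 49 members with any abundance, by the mean of both libraries, 31 had a lead transcript at 90% or more, 15 at 50% to 90%, and 3 below 50%. The lead transcript was the same in both libraries for 47 and was annotated as protein-coding for 47. The 3 below 50% were Psma3, Psmc3ip and Psmd11. For Psmc3ip the lead transcript, Psmc3ip-202, retained an intron and held 46.8% in replicate 1 and 46.7% in replicate 2, while its full-length coding transcript Psmc3ip-201 held 38.2% and 36.7%.

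The 5 largest differences of isoform percent between the libraries, among members of at least 10 TPM, fell in 3 genes. In Psma3, Psma3-201 held 16.1% in replicate 1 and 56.8% in replicate 2, and Psma3-204 held 39.8% and 0.98%. In Psmd1, Psmd1-201 held 75.3% and 55.5%, and Psmd1-208, a non-coding processed transcript, held 23.2% and 42.4%. In Psmf1, Psmf1-202 held 59.9% and 76.0%. These are estimates, and reads that cross the splice junctions, counted by the authors on mm9 over both replicates together, allow a second look at them.

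The junction reads gave little weight to Psma3-201, Psma3-204, Psmd1-208 and Psmf1-202, and nearly all of their weight at the Psmd1 sites to Psmd1-201. Introns were matched between builds by their length within a gene, which placed 99.96% of the members' annotated junction reads. The 8551 nt intron of Psma3-204 had 2 of 3408 reads at its shared splice site, 0.0587% (Wilson 95% interval 0.0161% to 0.214%). The 4508 nt intron of Psma3-201, which leaves out the 5 capital bases shown above, had 125 of 2731 reads, 4.58% (3.86% to 5.43%), against 2604 reads for the 4503 nt intron that keeps them. Later introns of Psma3 had from 7 to 46 reads, although 3406 reads crossed its first intron. In Psmd1, the 22234 nt intron of Psmd1-201 had 1620 of 1622 reads, 99.9%, and the 5506 nt intron of Psmd1-208 had the other 2 and its 1982 nt intron 0 of 567, which allows up to 0.673%. The 2848 nt first intron of Psmf1-202 had 1 read, where the annotated introns of Psmf1 had a median of 840.

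Psmb8 showed a similar disparity within its mm9 span, without a large move. Psmb8-203 was its lead transcript by estimate, at 68.1% in replicate 1 and 78.2% in replicate 2, with Psmb8-201 at 29.98% and 20.4%. The 608 nt intron that marks Psmb8-203 had no read within the mm9 span of the gene, where the annotated introns of Psmb8 had a median of 314. Junctions reaching outside that span were not counted, and this intron lies near the start of the gene, so its reads may have been missed. The RefSeq window of Psmb8 shown above begins after the annotated starts of both of these transcripts. For Psmc4-206 the marking intron had 0 of 2001 reads, which allows up to 0.192%, with estimated shares of 2.49% in replicate 1 and 17.1% in replicate 2. That intron is from M21, where the coding part of Psmc4-206 is 1161 nt, while the transcript quantified under this name was 587 nt long. These reads and estimates may thus belong to different transcript models. For Psmd5-202 it had 6 of 1485 reads, 0.404%, with estimates of 24.2% and 11.0%.

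For the introns of Psmd4, Psmg4 and Psmc3ip given here, the junction share lay within 5 percentage points of the mean estimate. The 144 nt intron of Psmd4, which keeps the 9 capital bases, had 1615 of 4551 reads, 35.5% (34.1% to 36.9%). The estimates were 29.8% in replicate 1 and 31.6% in replicate 2, both below that interval. The 153 nt intron, which leaves the 9 bases out, had the other 2936 reads. The bases are coding and their number leaves the reading frame as it is, and the annotated proteins of Psmd4-201 and Psmd4-202 are 379 and 376 codons long. In Psmg4, skipping of the 76-base exon shown above had 274 of 1090 reads, 25.1% (22.7% to 27.8%), with estimates of 31.7% and 25.2%. The forms with and without that exon code for 123 and 82 codons. In Psmc3ip, the 1121 nt intron of a transcript annotated to nonsense-mediated decay had 56 of 500 reads, 11.2%, with estimates of 12.2% and 11.2%.

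In Psmg3 and Psme2 the junction reads gave the less used form far more weight than the estimate. The 444 nt intron of Psmg3-202 had 314 of 916 reads, 34.3% (31.3% to 37.4%), with estimates of 17.9% in replicate 1 and 9.19% in replicate 2. It was not among the 2 junctions of Psmg3 marked as annotated on mm9, which had 602 and 1323 reads, and was matched by length alone. The 494 nt intron of Psme2 had 46 of 101 reads, 45.5% (36.2% to 55.2%), with estimates of 21.5% and 19.0%. Reads over the annotated introns of Psme2 were uneven, from 12 to 958 with a median of 55. The split of reads between Psme2 and Psme2b was uncertain as well, so this share is not firm. In all, 19 less used introns in 15 members held at least 2% by mean estimate or by junction reads. Only introns with an estimate of at least 2% in either library were considered. Introns with lower estimates were left out whatever their reads. Among the 19 kept, the junction share was below the estimate for 14 and within 5 percentage points of it for 8. These counts therefore lean towards introns with high estimates.

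**Figure D4:**
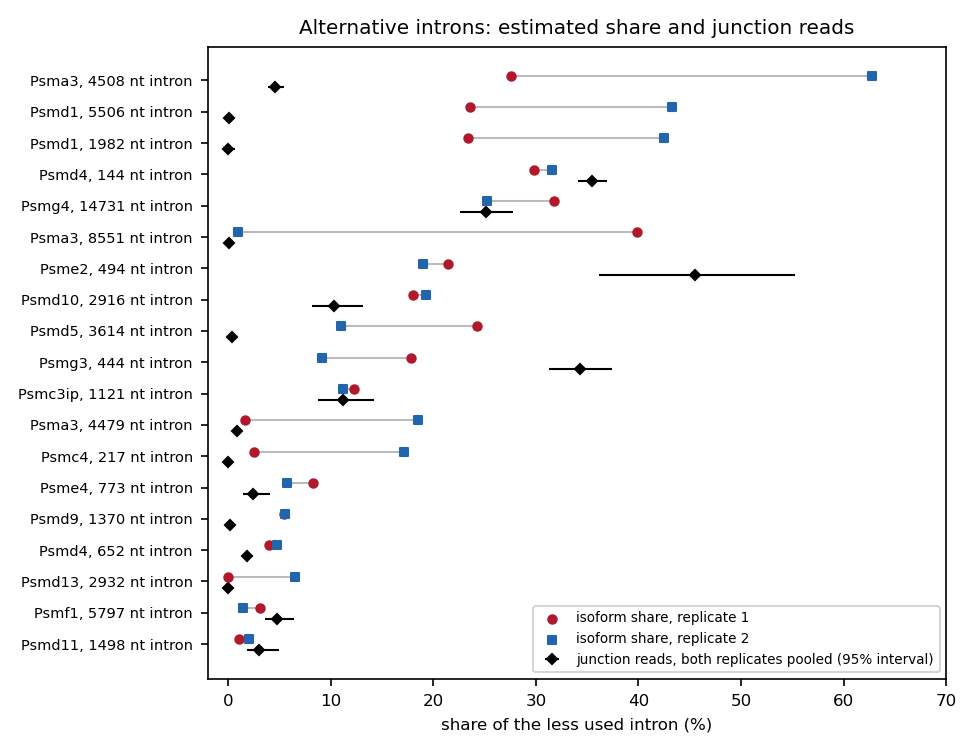
Share (%) of the less used of competing introns in 19 cases, labelled by gene and intron length, as estimated from isoform percent in replicate 1 (circles) and replicate 2 (squares) and as counted in junction reads of both replicates together (diamonds, Wilson 95% intervals). The Psmd4 and Psmg4 diamonds lie near the estimates, and those of Psma3 and Psmd1 lie near 0 while the estimates reach 62.7% and 43.3%.

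The promoters of the members were searched for the 3 motifs named above. RefSeq windows of 300 bases were found for 42 of the 50 members, 45 windows in all. TGACNNNGC, the core to which the proteasome regulators Nfe2l1 and Nfe2l2 are known to bind with small Maf partners, was in 6 of the 45, 13.3%, and in 13.0% of 21263 promoters of protein-coding genes. CCAAT was in 15 of the 45, 33.3%, and in 38.2% of all. The interferon-stimulated response element core, searched as GAAA repeated after a gap of 2 bases and as its complement on the other strand, was in 5 of the 45, 11.1%, and in 3.35% of all, and those 5 were Psmb3, Psmd4, Psmd9, Psme1 and Psmg4, with none among Psmb8, Psmb9 and Psmb10. Matches to different motifs did not overlap in these windows, while CCAAT boxes on opposite strands overlapped once, in Psmd14. In the windows shown above, Psmb5 holds TGACGTCGC at 47 bases before the start and Psmb6 holds TGACGGAGC at 9 bases before it.

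The known regulators were measured too. Nfe2l1 had 16.1 TPM in replicate 1 and 14.1 TPM in replicate 2, and Nfe2l2 had 29.2 and 24.4 TPM. Ddi2, the protease that activates the Nfe2l1 protein, had 9.83 and 6.73 TPM, and its paralog Ddi1 had 0 counts in both. Of this list of 8 genes, 7 were tested and none was called, with 3 past the test at any fold in each direction. The substrate tag was abundant: the polyubiquitin gene Ubb had 994 TPM in replicate 1 and 1004 TPM in replicate 2. Rps27a, which encodes ubiquitin fused to a ribosomal protein, had 867 and 372 TPM and was called, at a log2 ratio of 1.16. Among 8 genes of ubiquitin activation and shuttling, none was called.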

How the data were processed

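Each library had a gene and a transcript table on mm10 with annotation M4, per the notes deposited with them, in which the authors deposited expected counts (estimated counts, not whole), TPM and FPKM, per the file headers. The authors' transcript tables hold isoform percent, and posterior SDs of the counts were deposited beside them. On mm9 the authors deposited gene RPKM of both replicates, used as their mean because it is not stated which replicate is which library, and splice junction read counts, used as their sum. The sources used here name no aligner. The members and gene lists were chosen with earlier results of these data known. All members are named by role, with lead transcripts and the 5 largest isoform differences. Some genes of the pathway lists are not reported here.

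Identifiers were matched to GENCODE M21, with 42462 of 43346 given a symbol. Spike-in, phiX and 26248 numeric rows stayed out of library sizes and tests. Expected counts were rounded and tested where both libraries summed to 10 counts or more. TMM sizes (edgeR 4.0.16) were used, 0.5 was added for folds, and the test was checked on simulated counts. Those simulated counts held counting error only, so the check could not show false calls from other variation between libraries. With 1 group the quasi-likelihood test of edgeR could not be fitted. DESeq2 1.42.0 gave alternative sizes. The other steps used R 4.3.3, Python 3.11.15, scipy 1.17.1 and Biopython 1.88. Intervals cover counting error only, and the labels mention no molecular identifiers.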

Additional observations from a re-analysis of the deposited data

How the results depend on the processing

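No paired analysis was possible because the series holds 1 group. The count of 1 member called between the libraries was the same with DESeq2 sizes, summed counts, no count minimum or one of 50, edgeR's exact test with the housekeeping dispersion and the untested TPM ratio. It became 2 with spike-in sizes (Psmb3 and Psmg3, higher in replicate 2, with 21.7% of all genes called) and 9 at 1.5-fold (all higher in replicate 1, with 17.5% of all genes called). The core median of 120 TPM became 285 TPM without globin genes, mitochondrial genes and spike-ins, 16.9 RPKM on mm9 and 158 FPKM; without 1 replicate it was 104 to 136 TPM. The cap median of 54.8 TPM became 129 TPM, 13.9 RPKM and 71.6 FPKM in the same settings; without 1 replicate it was 44.0 to 65.6 TPM. The log2 ratio of immunoproteasome over standard catalytic sums, -3.53, became -3.01 in counts and -3.77 as the mean of pair ratios (-3.57 to -3.50 without 1 replicate), and had no mm9 value because Psmb9 was not matched. Chaperone over core, -2.05, became -1.96 in counts, -1.56 in mm9 RPKM and -2.10 as mean log2 levels (-2.05 in either replicate alone). Cap over core, -1.15, became -0.074, -0.28 and -0.99 in the same settings (-1.24 to -1.05 without 1 replicate). As means of the libraries, all these ratios kept their sign, and the cause of the changes was not tested. In counts, the cap median was above the core median in replicate 1. The count of members at 1 TPM, 47, was 44 to 49 under other minimums and units. Among the 19 less used introns, which were kept by their estimates, those at 10% or more numbered 12 by isoform percent and 6 by junction reads. Depth limits Psmb11, Psma8 and Psme2b most, and the spread of 2 libraries limits all levels.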
